A study of Mus musculus with 14 samples.

Results

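Claudins are the membrane proteins that form the strands of the tight junction, and the 10 members described here (*Cldn1*, *Cldn2*, *Cldn3*, *Cldn4*, *Cldn7*, *Cldn8*, *Cldn12*, *Cldn15*, *Cldn18* and *Cldn23*) were read from mouse intestine, intestinal tumors and a tumor cell line on one-color Agilent arrays. Members were taken by name alone, as the non-control probes whose gene name in the scanner files was one of these, which gave 12 probes for 10 of 36161 gene names. *Cldn2* and *Cldn4* had 2 probes each, and the brighter one over all arrays stands for the gene unless the second is named. The arrays named 13 further claudins.

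Each of 14 RNA samples was hybridized to 1 array. The groups were small intestine (3 arrays) and colon (3 arrays) of C57BL/6J mice, adenomas (3 arrays) and tissue adjacent to adenoma (2 arrays) of *Apc* Min/+ mice, and CT26 (3 arrays), a mouse colorectal carcinoma cell line grown without any other tissue. *Apc* Min/+ mice carry a truncating allele of *Apc*, a brake on Wnt signaling, and develop adenomas of the small intestine. The *Apc* Min/+ mice were on the same C57BL/6J background, the wild-type mice were adult, and no treatment is given for any group. For CT26 the methods name the supplier and no mouse strain. By the study's sample list all adenoma and adjacent pieces came from 1 *Apc* Min/+ mouse. The labels give C57BL/6J for every colon sample, whereas the list puts 1 colon sample under an *Apc* Min/+ mouse and the methods take normal colon from such mice, and which array holds which sample is not stated. P-values therefore measure the spread between these samples, which for adenomas is that between pieces of 1 mouse and for CT26 may be technical. No sorting of cells is given for the tissues on these arrays, so fewer epithelial cells and less RNA per epithelial cell cannot be told apart.

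The loops that claudins extend between neighboring cells meet in the gap and decide what passes. Some claudins seal the junction, as *Cldn3* and *Cldn4* are known to do, and others, foremost *Cldn2* and *Cldn15*, form pores for sodium and water, which absorption in the small intestine relies on. Inside the cell most claudins bind scaffold proteins such as the zonula occludens proteins, and occludin, tricellulin and the junctional adhesion molecules share the junction with them.

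The upstream sequences of 4 members are shown. *Cldn2* and *Cldn15* were called in opposite directions between adenomas and adjacent tissue. *Cldn3* and *Cldn4* are neighbors on chromosome 5, in opposite orientations, and are 2 of the 7 claudins called lower in CT26. Each run holds the 250 bases before the transcription start in RefSeq on GRCm38.p6, 5′ to 3′ in the direction of the gene. They lie at chrX:139800558-139800807 (plus strand), chr5:136967619-136967868 (plus strand), chr5:134985964-134986213 (plus strand) and chr5:134946935-134947184 (minus strand). Capitals mark 4 motifs searched on both strands, namely TATAAA of the TATA box, TTTATG of the CDX homeobox factors, TGANTCA of AP-1 and CAGGTG, an E-box.
Cldn2: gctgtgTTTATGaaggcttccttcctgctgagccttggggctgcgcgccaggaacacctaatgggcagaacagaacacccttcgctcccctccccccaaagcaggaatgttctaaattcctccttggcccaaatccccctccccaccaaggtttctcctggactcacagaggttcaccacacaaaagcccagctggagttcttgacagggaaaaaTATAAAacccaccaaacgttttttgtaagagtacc
Cldn15: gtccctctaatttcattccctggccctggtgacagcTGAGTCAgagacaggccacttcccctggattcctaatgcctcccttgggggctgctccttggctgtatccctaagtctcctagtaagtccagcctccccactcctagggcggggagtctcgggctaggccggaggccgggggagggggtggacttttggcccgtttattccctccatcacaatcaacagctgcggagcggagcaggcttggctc
Cldn3: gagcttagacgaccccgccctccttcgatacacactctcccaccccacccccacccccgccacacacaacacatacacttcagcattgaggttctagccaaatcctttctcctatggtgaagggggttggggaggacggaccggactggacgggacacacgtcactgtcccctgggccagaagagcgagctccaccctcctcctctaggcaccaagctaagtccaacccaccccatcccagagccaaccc
Cldn4: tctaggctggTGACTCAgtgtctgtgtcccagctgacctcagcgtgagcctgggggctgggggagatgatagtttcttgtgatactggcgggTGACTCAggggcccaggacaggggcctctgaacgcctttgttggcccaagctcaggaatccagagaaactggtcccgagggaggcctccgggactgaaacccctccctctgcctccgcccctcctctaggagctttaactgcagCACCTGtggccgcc
TATAAA stood in the window of *Cldn2*, 35 bases before the start, and in 12.4% of the 32851 windows of this length in the table. TTTATG was found 244 bases before the start of *Cldn2* and in 10.8% of all windows. TGANTCA occurred at 240 and 158 bases before the start of *Cldn4*, at 214 bases before that of *Cldn15*, and in 6.75% of all windows. CAGGTG was present at 14 bases before the start of *Cldn4* and in 17.2% of all windows, and the printed window of *Cldn3* held no match to the 4 motifs. These are matches of letters and not sites of binding, and no motif overlapped another in the printed windows. RefSeq windows were given for 8 of the 10 claudins (12 windows in all), and *Cldn8* and *Cldn23* had none.

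Signals are given as the scaled log2 signal, the log2 of the background-subtracted signal of a probe minus the 75th percentile of its array, so that 0 is the level below which 75% of the probes of the array lie. A pair of groups was compared with limma using their arrays only, after leaving out probes that were too dim in both, that is, not well above background throughout either group. Called genes met both thresholds of the study, a log2 fold change of 1.2 or more in either direction and a limma p, adjusted by Benjamini and Hochberg over all tested probes, no higher than 0.01. Of the 10 claudins, 8 passed the filter in each comparison. *Cldn1* and *Cldn18* did not pass it and were not tested. The share of probes well above background ran from 46.8% to 58.2% per array, of 55681, and no claudin probe was saturated.

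One array stood apart before any claudin was considered. Over the 20832 probes well above background everywhere, colon replicate 3 had a correlation of 0.951 to 0.969 with the small intestine arrays, whereas its correlation with colon replicates 1 and 2 was 0.934 to 0.938 and that between those was 0.985. The median scaled log2 signal of 10 enterocyte genes of the small intestine was 5.80 on it and -2.38 to -1.57 on the other colon arrays, while that of 7 colonocyte genes was 2.21 against 5.61 to 6.44. Every colon comparison is therefore given with and without this array. The 8 epithelial genes listed (*Cdh1*, *Epcam*, *Krt8*, *Krt18*, *Krt19*, *Vil1*, *Elf3* and *Esrp1*) were all well above background on every tissue array, with array medians from 5.77 to 7.14, but only 2 to 3 of them were on a CT26 array, where *Cdh1*, *Epcam*, *Krt19*, *Vil1* and *Elf3* were not well above background on any.

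**Figure D1:**
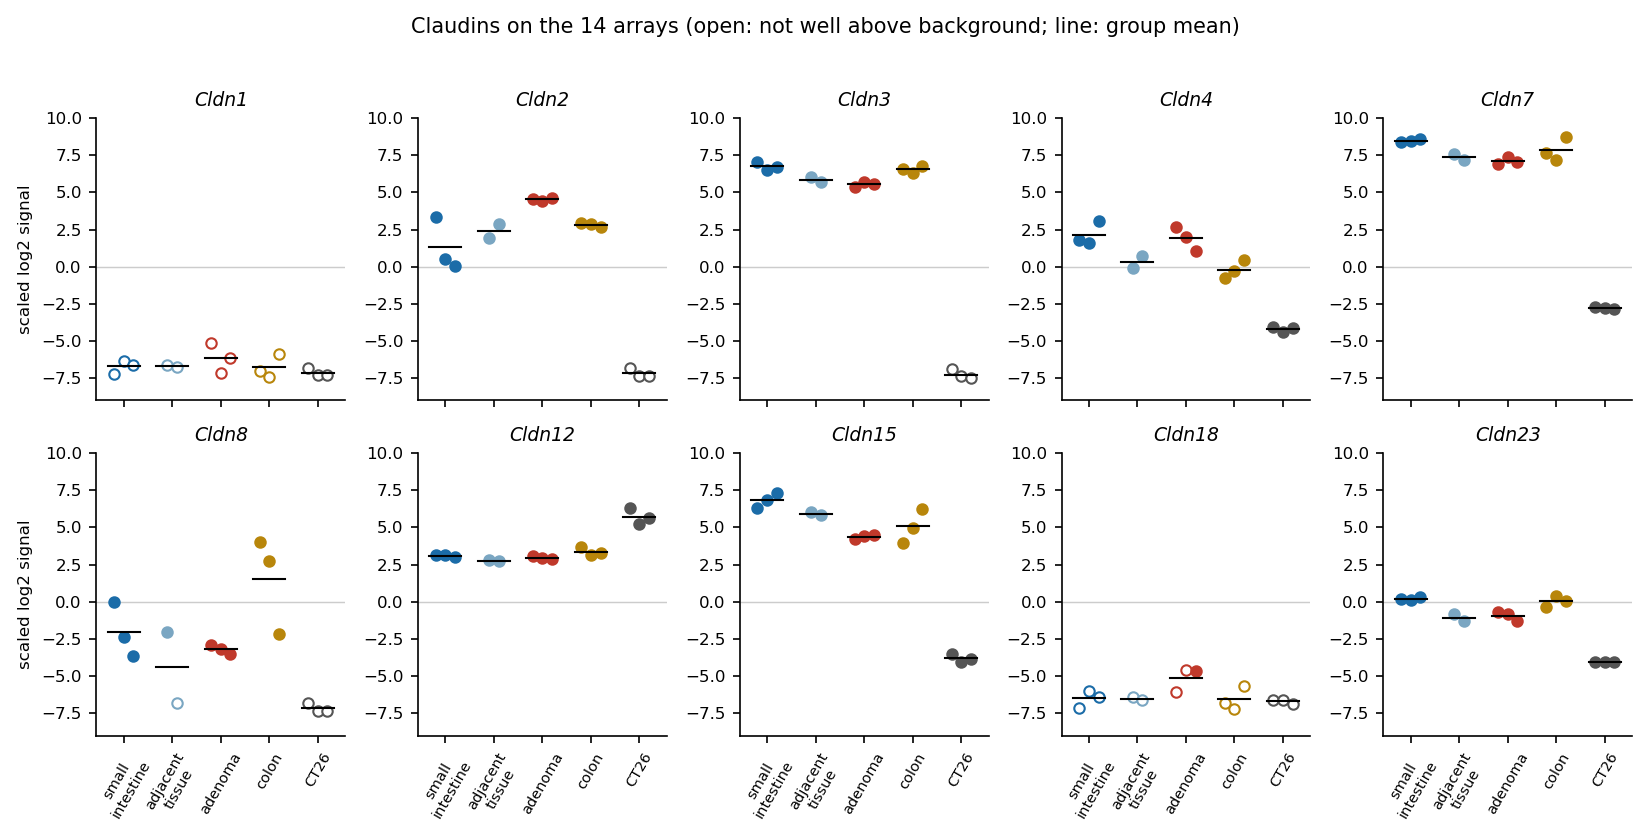
Scaled log2 signal of the 10 claudins (vertical axis) on each array of the 5 groups (horizontal axis), 1 point per array, with open points where the probe was not well above background and a line at the group mean. *Cldn2* sits from 4.45 to 4.65 on the 3 adenoma arrays, *Cldn12* is highest in CT26 at 5.23 to 6.32, and *Cldn1* is open on every array.

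Between adenomas and normal small intestine, 3 claudins were called and all were lower in adenomas, namely *Cldn15*, *Cldn7* and *Cldn3*. *Cldn2* had a larger log2 fold change in the other direction, with an adjusted p above the threshold. The 3 of 8 tested stand beside 22.4% of the 22094 genes tested that were called in this comparison, 11.1% lower and 11.3% higher in adenomas. The median log2 fold change of the 8 claudins was -1.16, against -0.15 over all genes tested. Lists of cell type genes differed in the same comparison, with median log2 fold changes of -2.13 for enterocytes (5 of 10 called lower), -1.96 for Paneth cells (3 of 5 lower), -1.42 for smooth muscle (1 of 6 lower), -1.25 for leukocytes (2 of 6 lower) and 1.97 for endothelium (3 of 6 higher). That of the 8 epithelial genes was -0.11, with 1 called higher and 1 lower. The part of these cell types in the claudin values was not tested.

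Of the pore-forming claudins, *Cldn15* had the largest fall of the called members. Its scaled log2 signal was 6.31, 6.86 and 7.32 in small intestine, 6.02 and 5.82 in adjacent tissue and 4.21, 4.42 and 4.50 in adenomas. All adenoma arrays were below all arrays of both other groups, and adjacent tissue lay in between without overlap. The adenoma mean was 4.37 ± 0.15 (SD, n = 3) against 6.83 ± 0.51 (SD, n = 3) in small intestine, a log2 fold change of -2.46 (SE 0.27, limma adjusted p = 5.84e-04), or 5.49-fold lower. *Cldn15* was called in this comparison under every alternative and without any single array, with log2 fold changes from -2.72 to -1.46. The probe lies at chr5:137451465-137451524 (mm9, the build of the scanner files).

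*Cldn2*, the other pore-forming claudin, is found mainly in crypts and in leaky epithelia. It read 3.35, 0.54 and 0.06 in small intestine, 1.90 and 2.84 in adjacent tissue, and 4.55, 4.45 and 4.65 in adenomas. The adenoma arrays lay within 0.2 of each other and above every other array of the series, while small intestine replicate 1 was far above the other small intestine arrays. The log2 fold change between adenomas and small intestine was 3.23 (SE 0.79), with a limma adjusted p of 0.0132, and without small intestine replicate 1 it was 4.25 with an adjusted p of 1.47e-04. In the authors' normalized table it was 3.37 with a limma adjusted p of 0.00787, past the threshold. On that replicate the enterocyte genes had a median of 5.91, against 8.64 and 8.91 on the other small intestine arrays. Whether this has a part in the *Cldn2* value was not tested. The second *Cldn2* probe (chrX:136343889-136343948, mm9) gave a log2 fold change of 3.20, close to the first (chrX:136345244-136345303), and was not called either (limma adjusted p = 0.0157).

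Among the sealing claudins, *Cldn7*, which lines the lateral membrane of intestinal epithelium, read 8.38, 8.49 and 8.58 in small intestine and 6.88, 7.37 and 7.07 in adenomas. The groups did not overlap, and the log2 fold change was -1.38 (SE 0.18, limma adjusted p = 0.00120). *Cldn3* read 7.06, 6.48 and 6.70 in small intestine and 5.36, 5.71 and 5.56 in adenomas, again without overlap, with a log2 fold change of -1.20 (SE 0.20, limma adjusted p = 0.00321) that lies at the threshold of fold change. Within slide 1 and slide 2 the log2 fold change was -1.51 and -1.12 for *Cldn7* and -1.42 and -0.78 for *Cldn3*. *Cldn3* was not called without small intestine replicate 1 (-1.05) or without any 1 adenoma array (limma adjusted p of 0.0121 to 0.0165). Both calls also depended on the scaling of the arrays. In the authors' normalized table the log2 fold changes were -1.09 for *Cldn7* and -0.85 for *Cldn3*, after quantile normalization -1.12 and -0.94, and with each array centered on the mean of the 8 epithelial genes -1.12 and -0.95, and neither gene was then called. With the median of those genes for centering, which was 5.77 to 6.21 on adenoma arrays and 6.87 to 7.14 on small intestine arrays, they were -0.38 and -0.20. The direction was the same in all of these.

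*Cldn23*, whose function is less known, had a difference in the same direction just short of the fold change threshold. It read 0.21, 0.12 and 0.29 in small intestine, -0.82 and -1.31 in adjacent tissue and -0.67, -0.81 and -1.31 in adenomas, so that both *Apc* Min/+ groups were below every small intestine array. Its log2 fold change between adenomas and small intestine was -1.14 (SE 0.21, limma adjusted p = 0.00423). This value also moved with scaling. It was -1.02 in the authors' normalized table and -1.15 after quantile normalization. With centering on the epithelial mean it was -0.88, and with centering on their median -0.14. *Cldn4* read 1.81, 1.60 and 3.07 in small intestine and 2.66, 1.98 and 1.06 in adenomas, and these ranges overlapped (log2 fold change -0.26, SE 0.51). *Cldn12*, an atypical claudin without the usual tail for binding scaffolds, was the steadiest of the tested members, from 2.73 to 3.18 over all arrays of small intestine, adjacent tissue and adenomas. Its log2 fold change between adenomas and small intestine was -0.14 (SE 0.15), and its sign turned with quantile normalization, in the authors' table and with either epithelial centering. *Cldn8*, a barrier claudin of the colon and kidney, read -0.01, -2.40 and -3.65 in small intestine and -2.93, -3.19 and -3.49 in adenomas, with overlap.

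*Cldn18*, the claudin of stomach and lung, was well above background on 1 array of 14, adenoma replicate 3, where it read -4.67. On adenoma replicate 2 it read -4.62 without being well above background, and the other arrays lay from -7.21 to -5.65. On the same adenoma arrays 8 of 8 gastric gland genes (*Gkn1*, *Gkn2*, *Gkn3*, *Muc5ac*, *Muc6*, *Tff1*, *Tff2* and *Aqp5*) were called higher than in small intestine, beside 11.3% of all genes tested. All 8 were well above background on every adenoma array, but only 2 to 6 of them on a small intestine array. Those not so throughout small intestine passed the filter through adenomas alone, so that higher was their only likely call. The array medians of the 8 were 3.88 to 4.15 in adenomas against -7.08 to -2.28 in small intestine and -2.12 to -1.81 in adjacent tissue. How *Cldn18* moves with these genes was not tested. *Cldn1*, a sealing claudin best known from the skin, was not well above background on any array.

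**Figure D2:**
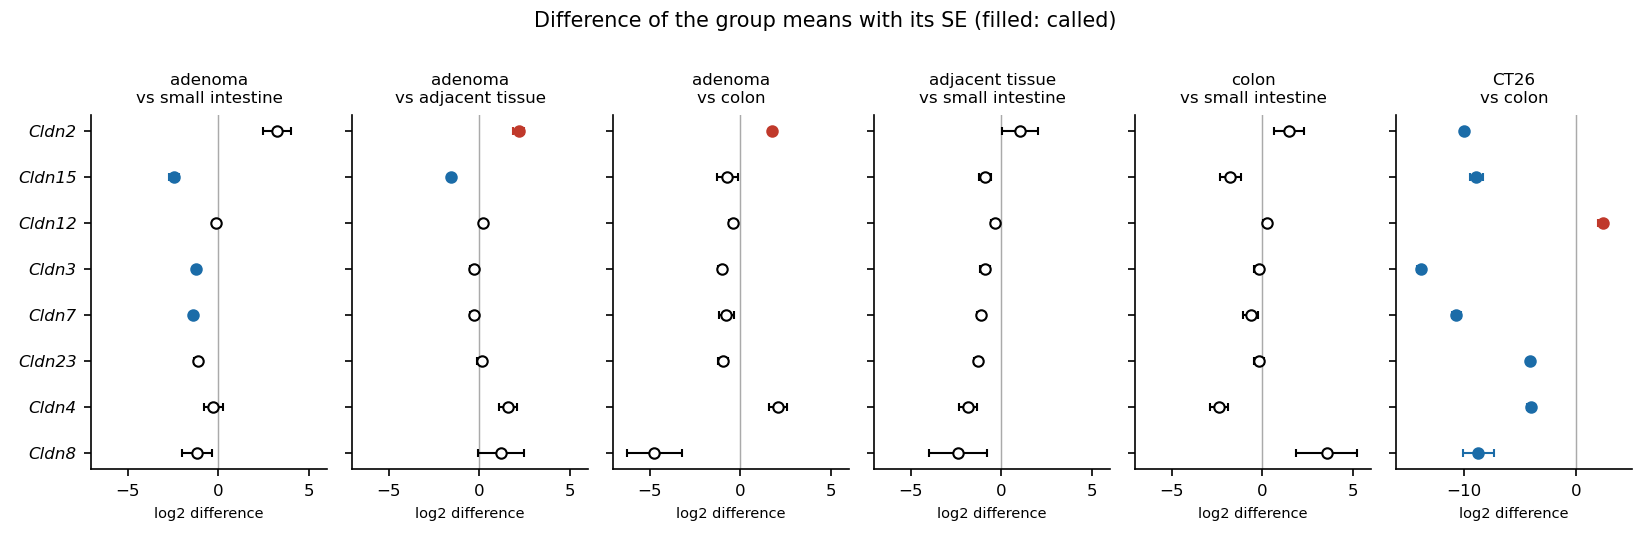
Log2 fold change (horizontal axis, with its SE as bars) of the 8 tested claudins (vertical axis) in 6 comparisons, filled red where called higher, filled blue where called lower and open where not called. *Cldn2* lies at 2.18 and 1.75 against adjacent tissue and colon, *Cldn15* at -2.46 and -1.54 against small intestine and adjacent tissue, and in CT26 *Cldn12* alone lies above 0.

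Within *Apc* Min/+ intestine, the comparison of adenomas with adjacent tissue called both pore-forming claudins in opposite directions. These were 2 of 8 tested, 1 higher and 1 lower, beside 4.18% of 22199 genes called (2.4% higher and 1.78% lower). *Cldn2* was 4.52-fold higher in adenomas, with means of 4.55 ± 0.10 (SD, n = 3) and 2.37 ± 0.66 (SD, n = 2) and a log2 fold change of 2.18 (SE 0.29, limma adjusted p = 0.00944). *Cldn15* was 2.91-fold lower, with a log2 fold change of -1.54 (SE 0.17, limma adjusted p = 0.00614). Both calls lie near the threshold of adjusted p. With the slide as a block the adjusted p was 0.0171 for *Cldn2* and 0.0159 for *Cldn15*, and neither was called without any 1 adenoma array or without adjacent replicate 1. Within slide 1 and slide 2 the log2 fold change was 2.69 and 1.61 for *Cldn2*, and -1.66 and -1.40 for *Cldn15*. The second *Cldn2* probe had a log2 fold change of 1.86 (limma adjusted p = 0.0142).

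The other members did not separate adenomas from adjacent tissue past the thresholds. *Cldn4* read -0.06 and 0.71 in adjacent tissue, below the 3 adenoma arrays, and had a log2 fold change of 1.58 (SE 0.50, limma adjusted p = 0.0751). The log2 fold changes of *Cldn3*, *Cldn7* and *Cldn23* were -0.31, -0.28 and 0.14, with overlapping arrays, and that of *Cldn12* was 0.21 without overlap. Of the 2 adjacent arrays, *Cldn8* was well above background on replicate 1 (-2.06) and not on replicate 2 (-6.78). Its log2 fold change of 1.22 rested on which was used, at 3.57 without adjacent replicate 1 and -1.14 without adjacent replicate 2.

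Adjacent tissue was set against normal small intestine to see what *Apc* Min/+ tissue outside adenomas holds. No claudin was called by limma, beside 0.00924% of 21641 genes (2 genes), although 8748 of 28833 probes had an unadjusted p under 0.05. Every claudin tested but *Cldn2* had a lower mean in adjacent tissue. For *Cldn7*, *Cldn23*, *Cldn4*, *Cldn15* and *Cldn3* the log2 fold changes were -1.10, -1.28, -1.84, -0.91 and -0.89, with limma adjusted p-values from 0.0549 to 0.137. *Cldn8* had one of -2.40 (limma adjusted p = 0.342). That of *Cldn12* was -0.35 (limma adjusted p = 0.269), and its sign turned with either epithelial centering. *Cldn2* had a log2 fold change of 1.06 (SE 0.99), with both adjacent arrays inside the range of small intestine.

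For colon against small intestine, the question was which claudins differ along the normal gut, and several values moved with colon replicate 3. With all arrays 0 claudins were called by limma, beside 0.00969% of 20645 genes, with 6414 of 27302 probes at an unadjusted p under 0.05. Without colon replicate 3, 7.23% of 22601 genes were called and still 0 of the 8 claudins tested, the lowest adjusted p among them being 0.0135.

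*Cldn8* was the member with the widest spread inside the colon. It read 4.01 and 2.76 on colon replicates 1 and 2 and -2.18 on colon replicate 3, which lies inside the small intestine range of -3.65 to -0.01. The log2 fold change was 3.55 (SE 1.69, limma adjusted p = 0.256) with all colon arrays and 5.41 (SE 1.04, limma adjusted p = 0.0170) without colon replicate 3. *Cldn15* read 3.98, 4.98 and 6.27 in colon and 6.31 to 7.32 in small intestine, so that colon replicate 3 was again nearest to small intestine. Its log2 fold change was -1.76 (limma adjusted p = 0.155) with all colon arrays and -2.35 (limma adjusted p = 0.0144) without that one. *Cldn4* read -0.77, -0.30 and 0.46 in colon, below all small intestine arrays, with log2 fold changes of -2.37 (limma adjusted p = 0.0814) and -2.70 (limma adjusted p = 0.0135). *Cldn7* read 7.64, 7.21 and 8.75, and only colon replicate 3 exceeded the small intestine arrays, with log2 fold changes of -0.62 and, without it, -1.06 (limma adjusted p = 0.0279).

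*Cldn2*, *Cldn3*, *Cldn12* and *Cldn23* did not follow this pattern. *Cldn2* was even across the colon arrays at 2.92, 2.85 and 2.64, while its log2 fold change of 1.49 had an SE of 0.82. *Cldn3* (6.58, 6.33 and 6.76, with a sign that turned under other scalings), *Cldn12* (3.67, 3.15 and 3.28) and *Cldn23* (-0.32, 0.38 and 0.05) had log2 fold changes of -0.19, 0.25 and -0.17, all with overlapping arrays.

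**Figure D3:**
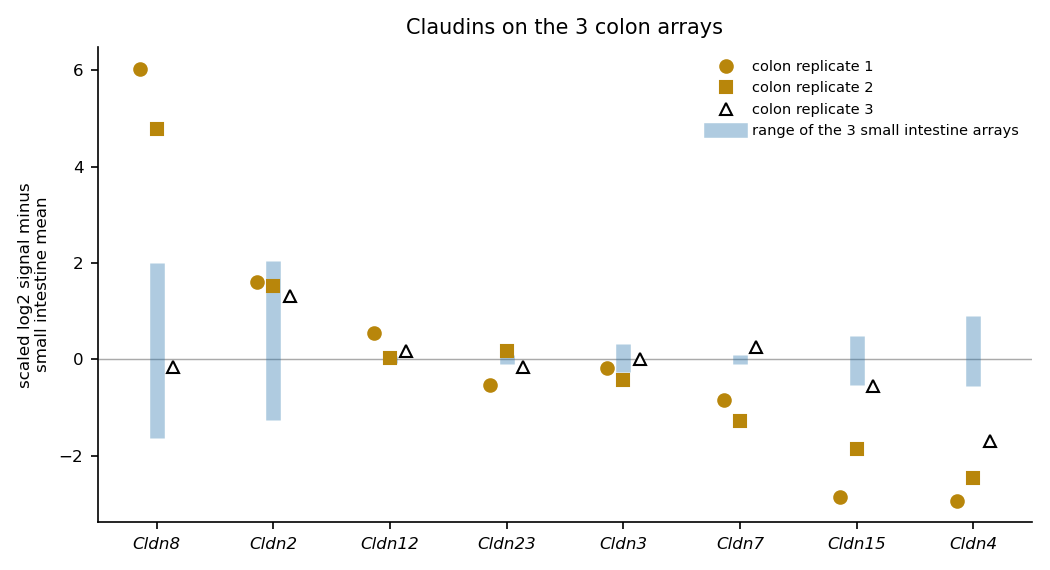
Scaled log2 signal of each colon array minus the small intestine mean (vertical axis) for 8 claudins (horizontal axis), with the range of the 3 small intestine arrays as a band. Colon replicate 3 (open triangle) lies within the band for *Cldn8* and far from the other colon arrays, at -2.18 against 4.01 and 2.76 before subtraction, and close to them for *Cldn2*.

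Adenomas were also compared with colon, and *Cldn2* was the 1 claudin of 8 called, higher in adenomas, beside 3.7% of 21861 genes called (2.07% higher and 1.63% lower). Its means were 4.55 ± 0.10 (SD, n = 3) and 2.80 ± 0.14 (SD, n = 3), a log2 fold change of 1.75 (SE 0.18, limma adjusted p = 0.00424), with no overlap. It was 1.67 without colon replicate 3 (limma adjusted p = 0.00149), but was not called without any other single array of these groups, with adjusted p-values of 0.0125 to 0.0379, nor with the slide as a block (0.0178). Within slide 1 and slide 2 it was 1.75 and 1.67. Without colon replicate 3, 11.7% of 23064 genes were called, and *Cldn8* joined *Cldn2*, with a log2 fold change of -6.59 (SE 0.40, limma adjusted p = 5.20e-04), which with all arrays was -4.74 (limma adjusted p = 0.100). *Cldn4* stood at 2.10 with all arrays (limma adjusted p = 0.0447) and 2.44 without colon replicate 3 (limma adjusted p = 0.0156), not called in either. *Cldn3*, *Cldn12* and *Cldn23* had lower means in adenomas, with log2 fold changes of -1.01, -0.40 and -0.97, as had *Cldn7* (-0.76) and *Cldn15* (-0.70). None of these was called with or without colon replicate 3.

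CT26 differed from colon in every claudin tested. Of 8 tested, 7 were lower and *Cldn12* was higher in CT26, beside 37.2% of 21692 genes called (16.2% lower and 21% higher). The median log2 fold change of the 8 was -8.79, against 0.32 over all genes. The count and the median take in *Cldn2*, *Cldn3* and *Cldn8*, which passed the filter through colon alone, so that lower was their only likely call. Of the members well above background on all arrays of both groups, *Cldn4*, *Cldn7*, *Cldn15* and *Cldn23* were called lower and *Cldn12* higher. The same 8 were called without colon replicate 3, where 39.5% of 23184 genes were called. No direction changed with scaling or background correction, but sizes did. In the authors' normalized table and with normexp background correction the log2 fold changes were -2.50 and -2.89 for *Cldn23*, -2.40 and -2.78 for *Cldn4*, -7.58 and -7.81 for *Cldn15*, and -9.63 and -9.93 for *Cldn7*, all smaller in size than with the processed signal, and *Cldn8* was not called in the authors' normalized table (limma adjusted p = 0.0217) or without CT26 replicate 1 (limma adjusted p = 0.0101).

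*Cldn2*, *Cldn3* and *Cldn8* were not well above background on any CT26 array, so their differences are given as lower bounds. These set the colon mean against the lowest signal well above background on each CT26 array and hold for the processed signal. They are approximate, since a probe can exceed that lowest signal without being well above background. *Cldn18* did so on adenoma replicate 2, at -4.62 where the lowest was -5.04. The p-values beside the bounds test the full difference. *Cldn3* was at least 3649-fold lower (limma adjusted p = 5.42e-07), *Cldn2* at least 271-fold lower (limma adjusted p = 6.15e-07) and *Cldn8* at least 112-fold lower (limma adjusted p = 0.00158). Without colon replicate 3 the bounds were 3397-fold, 286-fold and 405-fold. Fold changes given below as at least are bounds of the same kind, hold for the processed signal only, and are not given under other background treatment. Other background treatment compressed the differences of these 3 claudins below their bounds. The log2 fold changes were -9.96 for *Cldn3*, -6.25 for *Cldn2* and -5.03 for *Cldn8* in the authors' table. With normexp they were -10.16, -6.44 and -5.41, where the bounds are 11.83, 8.08 and 6.81 on the log2 scale.

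The other lower members kept a signal above background on all 3 CT26 arrays. *Cldn7* read -2.69, -2.76 and -2.86 in CT26, and its log2 fold change was -10.64 (SE 0.42, limma adjusted p = 1.79e-06). *Cldn15* read -3.48, -4.06 and -3.86, with a log2 fold change of -8.88 (SE 0.56, limma adjusted p = 1.44e-05). Both lay below every tissue array. *Cldn23* and *Cldn4* had smaller differences, with log2 fold changes of -4.08 (SE 0.29, limma adjusted p = 2.85e-05) and -3.99 (SE 0.37, limma adjusted p = 1.04e-04). The *Cldn4* probes disagreed in size, since the second (chr5:135421347-135421406, mm9) was not well above background in CT26 and gave at least 40.3-fold lower, where the first (chr5:135422135-135422194) gave 15.9-fold. Without colon replicate 3 the log2 fold changes were -10.19 for *Cldn7*, -8.28 for *Cldn15*, -4.07 for *Cldn23* and -3.66 for *Cldn4*.

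*Cldn12* read 6.32, 5.23 and 5.67 in CT26 and 3.67, 3.15 and 3.28 in colon, without overlap. Its log2 fold change was 2.38 (SE 0.36, limma adjusted p = 0.00120), or 5.19-fold higher, and 2.33 without colon replicate 3. Within slide 1 and slide 2 it was 2.85 and 1.75. The probe lies at chr5:5505223-5505282 (mm9).

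These claudin differences stood beside a low signal of epithelial genes at large. In CT26 8 of 8 epithelial genes were called lower than in colon, beside 16.2% of all genes, with a median log2 fold change of -12.10. Those named above as not well above background on any CT26 array passed the filter through colon alone, so that lower was their only likely call. The count and the median take them in, and on a CT26 array 2 to 3 of the 8 were well above background. *Cdh1*, which encodes E-cadherin, was at least 1452-fold lower, and *Krt18*, a keratin, was the mildest with a log2 fold change of -2.58. Their part in the claudin differences was not tested.

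The partners of claudins in the tight junction were read from a list of 26 genes of junction membrane proteins, scaffolds and polarity proteins. Between adenomas and small intestine 2 were called higher and 5 lower of 26 tested, a share near the 22.4% of all genes called, with a median log2 fold change of -0.42. The largest of the lower ones was *Ocln*, which encodes occludin, with a log2 fold change of -2.12 (limma adjusted p = 2.44e-04). *Cgnl1*, a scaffold related to cingulin, was called higher against small intestine (at least 2.98-fold) and also against adjacent tissue (at least 2.87-fold, limma adjusted p = 0.00478). Against adjacent tissue it was the 1 partner of 26 called, beside 4.18% of all genes. *Cgnl1* was not well above background on any array of small intestine or adjacent tissue. It passed the filter through adenomas alone, so that higher was its only likely call.

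Between colon and small intestine 0 of 24 partners tested were called by limma with all arrays. Without colon replicate 3, 2 of 25 were called by limma, both higher in colon, a share near the 7.23% of all genes called. *Ildr1*, an angulin of tricellular contacts, had a log2 fold change of 4.54 (limma adjusted p = 0.00188), and *Wnk4*, a kinase that acts on claudins in the kidney, of 2.29 (limma adjusted p = 0.00702). Both were called lower in adenomas than in colon without that array, with log2 fold changes of -4.09 (limma adjusted p = 4.08e-04) and -1.73 (limma adjusted p = 0.00159), and not with all arrays (-2.84 and -0.82). Between adjacent tissue and small intestine 0 of 25 were called.

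In CT26, 17 of the 25 partners tested were lower than in colon and 1 was higher, beside 16.2% of all genes called lower and 21% higher. Their median log2 fold change was -5.31, beside 0.32 over all genes. Without colon replicate 3, 18 were lower and 2 higher of 25. On each CT26 array 12 to 14 of the 26 listed were well above background. Tested partners that were not so on every CT26 array passed the filter through colon alone, so that lower was their only likely call. The counts and the median take these in, and the largest differences, named next, are among theirs. The largest differences were those of *F11r*, a junctional adhesion molecule (at least 1620-fold lower), *Tjp3*, a zonula occludens scaffold (at least 2012-fold lower), and *Igsf5*, another junction membrane protein (at least 608-fold lower). The partner called higher, named after its value was seen, was *Ybx3* (listed as *Csda*), a nucleic acid binding protein that also docks at the junction, with a log2 fold change of 1.31 (limma adjusted p = 0.00526).

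**Figure D4:**
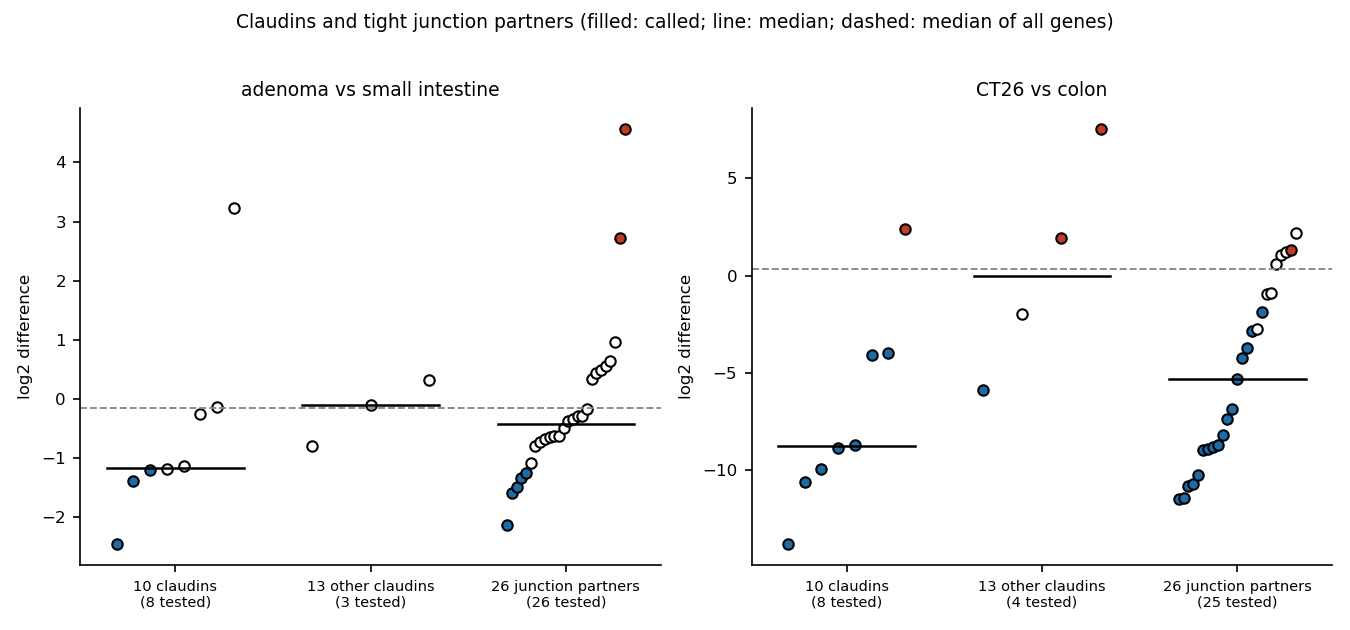
Log2 fold change (vertical axis) of the tested claudins, of the further claudins and of the junction partners (horizontal axis) in adenomas against small intestine and in CT26 against colon, 1 point per gene, filled where called, with a line at each list's median and a dashed line at the median of all genes. In CT26 the medians of the claudins and the partners lie at -8.79 and -5.31 and that of all genes at 0.32. Both lists hold genes that passed the filter through colon alone.

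Of the 13 further claudins on the arrays, 0 were called in the comparisons among tissues, and 3 to 5 were tested in each of them. In CT26 against colon 4 were tested, with 2 called higher and 1 lower, beside 21% of all genes called higher and 16.2% lower. Without colon replicate 3 these were 2 and 4 of 6, beside 39.5% of all genes called in either direction. *Cldn6*, known from embryonic epithelium, was higher, with means of 1.83 in CT26 and -5.70 in colon and a log2 fold change of 7.54 (SE 0.60, limma adjusted p = 4.68e-05). Its probe was well above background on all 3 CT26 arrays and on 1 colon array. It thus passed the filter through CT26 alone, so that higher was its only likely call. *Cldn9* was also higher, with a log2 fold change of 1.95 (limma adjusted p = 0.00345). *Cldn5*, the claudin of endothelium, was at least 29.7-fold lower (limma adjusted p = 1.18e-05). It passed the filter through colon alone, so that lower was its only likely call. Of the 6 endothelial genes, 2 were well above background on each CT26 array. *Cldn16*, *Cldn17*, *Cldn19*, *Cldn20* and *Cldn24* were not well above background on any array.

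For each called claudin, the genes with the closest pattern over the 14 arrays were found among 23650 genes by the root mean square difference of their scaled log2 signals, each centered on its own mean. As the CT26 arrays lie far from the tissues for most claudins, they weigh most in this measure. Nearest to *Cldn2* were *Tspan12* (0.56) and *Bex1* (0.70), and to *Cldn15* *Epb4.1l3* (0.34) and *Aplp1* (0.36). *Cldn3* was nearest to *Hnf4a* (0.31), a transcription factor of gut epithelium, and *Degs2* (0.35), and *Cldn7* to *Fam83g* (0.28) and *Cx3cl1* (0.29). The nearest to *Cldn4* were *Sfn* (0.54) and *Cst7* (0.60), to *Cldn12* *Zfp948* (0.19) and *Bbc3* (0.19), and to *Cldn23* a transcript without a gene name and *Sh3yl1* (both 0.35). *Cldn8* had no close neighbor, its nearest being *2610528A11Rik* (1.31) and *Pyy* (1.40), a hormone gene of enteroendocrine cells.

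Over the series, the order of group means differed by member. *Cldn2* ran from adenoma (4.55) through colon (2.80), adjacent tissue (2.37) and small intestine (1.32) to CT26, and colon, adjacent tissue and small intestine overlapped one another. *Cldn15* ran from small intestine (6.83) through adjacent tissue (5.92), colon (5.08) and adenoma (4.37) to CT26 (-3.80), with colon overlapping adjacent tissue and adenoma. *Cldn7* ran from small intestine (8.49) through colon (7.86), adjacent tissue (7.38) and adenoma (7.10) to CT26 (-2.77), and each of the neighbors among the tissues overlapped. *Cldn3* had the same order, with means of 6.75, 6.56, 5.85 and 5.54, and its small intestine overlapped colon and its adjacent tissue overlapped adenoma. *Cldn4* ran from small intestine (2.16) through adenoma (1.90), adjacent tissue (0.32) and colon (-0.20) to CT26 (-4.20), with overlap at the first step and the third. *Cldn23* ran from small intestine (0.21) through colon (0.04), adenoma (-0.93) and adjacent tissue (-1.07) to CT26 (-4.04), with the same overlaps. *Cldn8* ran from colon (1.53) through small intestine (-2.02), adenoma (-3.20) and adjacent tissue (-4.42) to CT26, with overlap at every step but the last, where adjacent replicate 2 and all CT26 arrays were not well above background and have no order. *Cldn12* alone had CT26 (5.74) above colon (3.37), small intestine (3.11), adenoma (2.97) and adjacent tissue (2.76), with overlap from colon to small intestine and from small intestine to adenoma.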

How the data were processed

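RNA of 14 samples was hybridized to one-color Agilent mouse arrays with 62976 spots each, on 2 slides. The deposited intensity values were made by the authors with Agilent Feature Extraction, per the file headers, which subtracted background and detrended each array without scaling between arrays. The authors also deposited a table of log2 values normalized between arrays by a method not given in the sources used here. That table served as an alternative, and its columns of the authors' comparisons (fold changes and p-values) and 28 further per-sample columns were not used. Spots flagged as outliers were left out, replicate spots of a probe were averaged on the log2 scale, and each array was set to 0 at its 75th percentile. Pairs of groups were tested with lmFit and eBayes of limma 3.58.1 in R 4.3.3, and the scripts were tested on simulated data. Probe positions are those of mm9 in the scanner files, upstream sequences those of RefSeq on GRCm38.p6, and the symbols of 12 of 12 claudin probes matched RefSeq by accession.

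The members, gene lists and tests were chosen with earlier results of these data known, and the motifs after the sequences had been read. All 10 claudins were named, of the other lists at most 3 called genes per comparison with the largest change, and the 2 genes nearest to each called claudin. One gene that this rule would name is not reported here. Alternatives were the authors' table, normexp with an offset of 50, quantile normalization, filters on dim probes, all groups in 1 fit, an intensity trend, any probe of a gene, blocks for slide or replicate number, looser thresholds and leaving out each array. Centering on the epithelial genes was added after the data were seen. Arrays give no counting depth, and the number of arrays limits the precision. Samples that share a replicate number did not deviate together in every pair (correlations over probes from -0.322 to 0.291), so no pairing was used.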

Additional observations from a re-analysis of the deposited data

How the results depend on the processing

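Of the single-claudin values under the alternatives, 867 kept their direction and their side of the thresholds (or, without a test, moved by less than the spread), 49 lost and 15 gained a call, 26 untested values moved by more than the spread, and 22, none of them called in either setting, turned sign, as did 7 of the untested values within a slide. For adenoma against small intestine, 3 claudins were called, 1 after quantile normalization, 5 at an adjusted p of 0.05 with no minimum fold change and 2 to 3 without 1 array. For adenoma against adjacent tissue, 2 were called, 1 after quantile normalization or either epithelial centering, 0 with no filter on dim probes, with all 5 groups in 1 fit or with the slide as a block, and 0 to 2 without 1 array. For adenoma against colon, 1 was called, 0 with no filter, with all groups in 1 fit, with the slide as a block or with either epithelial centering, 3 at an adjusted p of 0.05, and 0 to 2 without 1 array. For CT26 against colon, 8 were called, 5 when a probe had to be well above background in both groups (the 5 then tested), and 7 to 8 without 1 array. For colon against small intestine, 0 were called by limma, 1 (*Cldn4*) with all groups in 1 fit and 0 without any 1 array, and for adjacent tissue against small intestine 0 were called under every alternative run. The cause of these changes was not tested unless the alternative itself names it. The median of all genes in adenoma against small intestine was -0.15, -0.03 after quantile normalization or in the authors' table, 0.85 after centering on the epithelial median and 0.11 after centering on the epithelial mean, and claudin values shift with it.

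With the replicate block, though the numbers do not pair the samples, 2 claudins were called in adenoma against small intestine, 0 in adenoma against adjacent tissue (0 also by the numbers in the titles), 0 in adenoma against colon and 8 in CT26 against colon. The probes of *Cldn1* and *Cldn18* were too close to background for any comparison, and with 2 or 3 arrays a group, a difference that was not called is not shown to be absent.

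The log2 fold changes that turned sign were, for adenoma against small intestine, those of *Cldn12* (-0.14) in the authors' table (0.087), after quantile normalization (0.10) and after centering on the epithelial median (0.86) or mean (0.11), and of *Cldn4* (-0.26) after median centering (0.74), without small intestine replicate 3 (0.19) and without adenoma replicate 3 (0.16), with -0.64 to 0.19 over all left-out arrays. For adenoma against adjacent tissue they were those of *Cldn8* (1.22) with normexp (-0.10) and without adjacent replicate 2 (-1.14, with up to 3.57 without another array), of *Cldn3* (-0.31) and *Cldn7* (-0.28) after median centering (0.030 and 0.064), of *Cldn12* (0.21) after mean centering (-0.028), and of *Cldn23* (0.14) after mean centering (-0.10) and without adjacent replicate 2 (-0.11, with up to 0.38 without another array). For adjacent tissue against small intestine, *Cldn12* (-0.35) turned after median (0.31) and mean (0.14) centering. For colon against small intestine they were those of *Cldn3* (-0.19) in the authors' table (0.04), after quantile normalization (0.054) and after median centering (0.68), of *Cldn7* (-0.62) after median centering (0.25), and of *Cldn23* (-0.17) after median centering (0.70) and without colon replicate 1 (0.0066, with down to -0.34 without another array). The cause was not tested.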
